A study of Mus musculus with 20 samples.

Results

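The 36 genes described here mark the epithelium of the lung: 9 are known for alveolar type 2 cells, 6 for alveolar type 1 cells, 2 for both alveolar types, 6 for secretory cells of the airway, 2 for ciliated cells and 11 for epithelium in general. They were chosen by name, and each matched 1 of the 49315 gene identifiers in the count tables. Expression was measured by RNA sequencing in eosinophils, granulocytes of type 2 immunity, sorted by flow cytometry from mouse lung, and each library pools lungs from 3 to 5 mice. The graft libraries (n = 5) came from C57BL/6 recipients of a Balb/c lung, taken at day 7 and titled as without costimulatory blockade (CSB), a treatment that withholds accessory signals from T cells. The protocol text shared by all samples names CSB for every transplant, so the titles decide this group. The resting libraries (n = 5) came from the lungs of untreated C57BL/6 mice. The recipients and the resting mice are of the C57BL/6 strain, the age of the mice is not given, and the labels describe the eosinophils of grafts as the recipient's own. The epithelium of a graft comes with the donor lung, here Balb/c, while that of resting lung is C57BL/6. For epithelial genes, strain and graft therefore cannot be told apart. Of the 20 samples in 4 groups that the labels list, the 10 of the other 2 groups were not analysed here.

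Alveolar type 2 cells make surfactant, the film of lipid and protein that keeps alveoli open, and they renew the flat type 1 cells through which gas is exchanged. Secretory (club) cells of the airway release small secretoglobins and defence proteins, and ciliated cells beat the mucus layer towards the throat. None of these cells is the target of an eosinophil sort. The 36 genes together took 0.0528% to 0.106% of all counts in the graft libraries and 0.516% to 0.938% in the resting libraries. In such bulk samples, fewer cells of a type and less RNA per cell cannot be told apart. Where in the sorted samples the epithelial reads came from was not tested.

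Promoters are shown for a type 2, a type 1 and a secretory gene that fell and for the 1 gene of the 36 that rose, because these genes carry the contrasts described below. Each is a RefSeq window on GRCm38.p6 from 250 bases before to 50 bases after the start of the gene, read 5′ to 3′ on the strand of the gene. Sftpb, a type 2 gene, lies at chr6:72304360-72304659 on the plus strand. Ager, a type 1 gene, lies at chr17:34597600-34597899 on the plus strand, and Bpifa1, a secretory gene, at chr2:154142630-154142929 on the plus strand. Pdpn, the gene that rose, lies at chr4:143299515-143299814 on the minus strand. Capitals mark matches on either strand to TCAAG (a core of sites for NKX2-1, the lung transcription factor), to TGTTTAC or TGTTTGC (forkhead motifs) or to GTTGCC (a half-site of RFX factors).
Sftpb: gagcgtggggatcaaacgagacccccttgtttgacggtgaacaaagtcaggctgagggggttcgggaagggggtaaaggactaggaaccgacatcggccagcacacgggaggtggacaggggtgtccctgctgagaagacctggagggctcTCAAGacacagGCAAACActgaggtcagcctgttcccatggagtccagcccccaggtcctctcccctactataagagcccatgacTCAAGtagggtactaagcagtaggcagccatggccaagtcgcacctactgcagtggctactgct
Ager: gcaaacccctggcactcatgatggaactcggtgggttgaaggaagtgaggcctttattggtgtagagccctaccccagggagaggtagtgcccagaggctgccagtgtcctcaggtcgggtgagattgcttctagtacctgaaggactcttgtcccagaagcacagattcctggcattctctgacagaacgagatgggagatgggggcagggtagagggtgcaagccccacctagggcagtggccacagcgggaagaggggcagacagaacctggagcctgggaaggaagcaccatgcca
Bpifa1: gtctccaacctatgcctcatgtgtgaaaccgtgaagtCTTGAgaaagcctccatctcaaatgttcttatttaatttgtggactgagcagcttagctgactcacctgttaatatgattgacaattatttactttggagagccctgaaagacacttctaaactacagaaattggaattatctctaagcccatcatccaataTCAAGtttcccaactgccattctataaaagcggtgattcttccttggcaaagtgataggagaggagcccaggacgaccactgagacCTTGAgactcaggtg
Pdpn: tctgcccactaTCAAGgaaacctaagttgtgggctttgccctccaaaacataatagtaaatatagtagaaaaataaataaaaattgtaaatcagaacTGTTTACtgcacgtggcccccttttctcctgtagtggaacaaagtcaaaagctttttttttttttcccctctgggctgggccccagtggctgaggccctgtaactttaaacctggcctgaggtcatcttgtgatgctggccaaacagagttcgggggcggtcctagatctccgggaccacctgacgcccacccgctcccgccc
Sftpb held 3 matches, Bpifa1 3 and Pdpn 2, and the Ager window held 0. RefSeq windows were at hand for 26 of the 36 genes (32 windows), and a gene with several windows counts more than once below. TCAAG stood in 40.6% of these windows and in 40.7% of all 32851 promoter windows. TGTTTAC stood in 9.38% of the windows of the epithelial genes (3 of 32) and in 3.65% of all windows. TGTTTGC stood in 15.6% of the windows of the epithelial genes (5 of 32) and in 5.07% of all windows. These 5 windows belong to Bpifb1, Cldn18, Scgb3a1 and Sftpb alone. GTTGCC stood in 9.38% of the windows of the epithelial genes and in 12.5% of all windows. None of the motifs contains another, and a match describes only the letters of the window.

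Total counts were 15695074 to 26683784 in the graft libraries and 6666577 to 12883144 in the resting libraries. Levels are given as CPM, the library-size-scaled counts after TMM scaling, which adjusts totals for composition. By unscaled library totals, the limit set by 3 counts lay at 0.112 to 0.191 CPM for graft libraries. For resting libraries it lay at 0.233 to 0.450 CPM. These limits cover counting error only, and without TMM scaling they match the levels given here only roughly. Graft and resting libraries were deposited in different tables and at different depths, and any batch effect tied to this cannot be told apart from the graft itself. All 10 eosinophil markers had counts, and they summed to 834.8 to 2994 CPM in the graft and 1287 to 2627 CPM in resting lung. The 36 epithelial genes summed to 593.9 to 1111 CPM in the graft and 5039 to 8532 CPM in resting lung. In every resting library they were above the eosinophil markers. The lists differ in their number of genes, so these sums do not give shares of cells. Replicates are pools, so the p-values rest on pool-to-pool variation.

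Most of the epithelial genes were lower in the graft. With edgeR's quasi-likelihood test, 31 of the 36 fell, 1 rose and 4 did not pass at an adjusted p of 0.05, against 23.4% of all 16500 tested genes that fell and 23.3% that rose. Of the 36, 25 fell by at least 4-fold, as did 10.1% of all tested genes. In 31 genes every graft library lay below every resting library, against 18.7% of tested genes, and in 1 gene every graft library lay above, against 16.4%. The median log2 fold change, graft minus resting, was -2.94 over the 36 genes and 0.05 over all tested genes. All 36 passed the filter on low counts, but only 21 reached its 0.7 CPM, by unscaled library totals, in all 5 graft libraries. Of these 21, 17 fell. The other 15 fell short of it in at least 1 graft library, so those among them that passed through the resting libraries alone had to differ and add no support. By subset, the genes that reached it in every graft library were 8 type 2 genes (6 of them lower), 4 type 1 genes (3 lower), 6 general genes (5 lower), and 1 each, all lower, of the secretory, ciliated and shared alveolar genes.

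**Figure D1:**
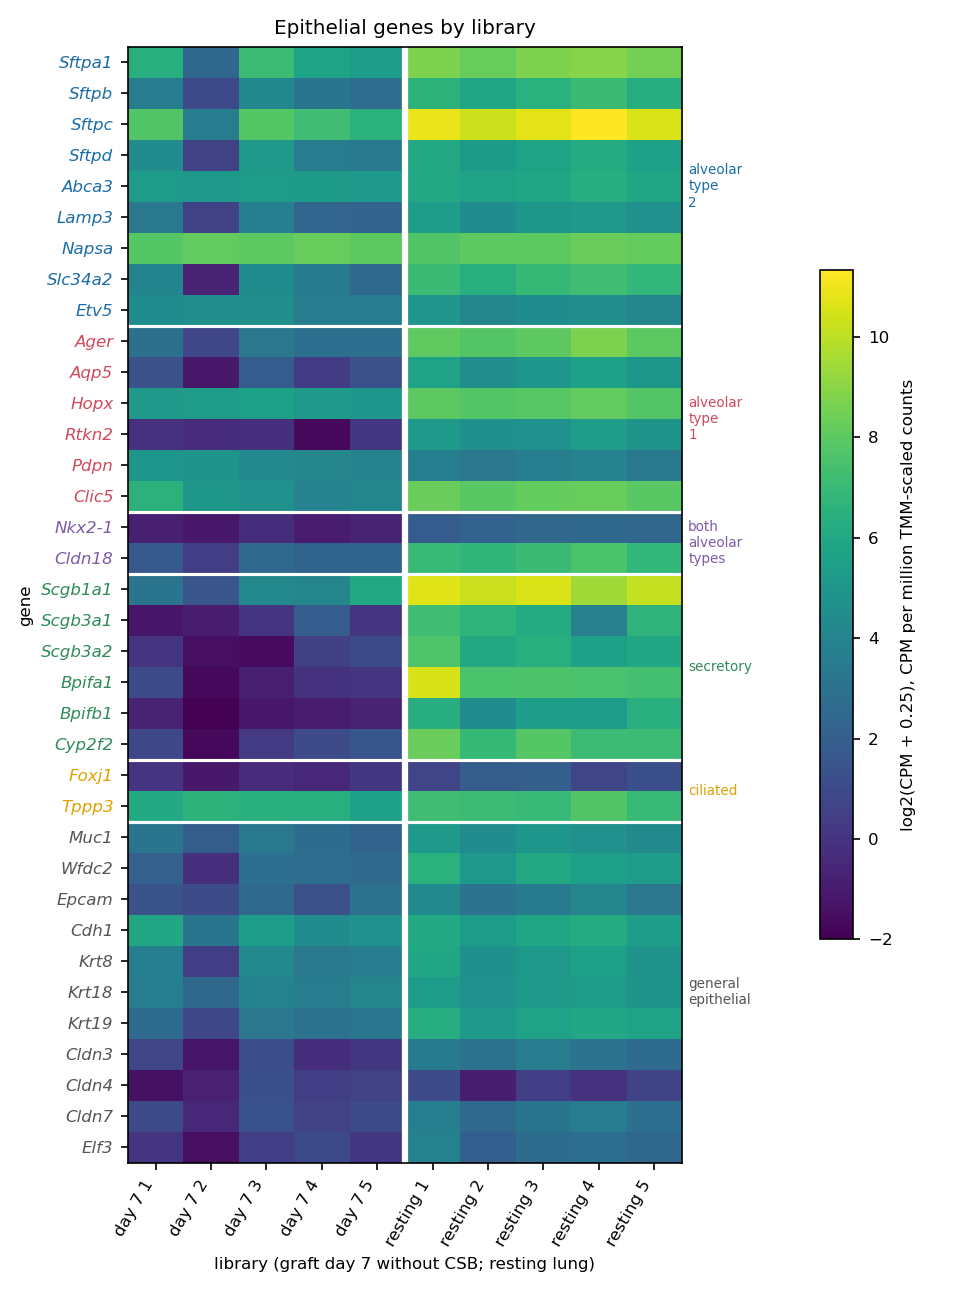
Heat map of log2(CPM + 0.25) for the 36 epithelial genes (rows, grouped by subset) in the 5 day 7 graft libraries without CSB (left) and the 5 resting libraries (right). Sftpc and Scgb1a1 are the brightest rows in resting lung, Napsa keeps a similar shade in all libraries, and graft library 2 is the darkest graft column for most genes.

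Of the 9 type 2 genes 7 fell and 2 did not pass, with a median log2 fold change of -2.29, and the surfactant genes were among those that fell. Sftpc, the hydrophobic surfactant protein C (ENSMUSG00000022097, chromosome 14, 70520949 to 70524081, mm10), had 211.8, 12.2, 228.0, 150.9 and 92.0 CPM in graft libraries 1 to 5 and 1952, 1288, 1767, 2581 and 1520 CPM in resting libraries 1 to 5. Graft library 2 was far below the other graft libraries, and the groups did not overlap. Sftpc fell by 3.71 ± 0.58 on the log2 scale (SE, quasi-likelihood adjusted p = 0.000162). Sftpa1, a collectin that binds microbes, had 86.4, 5.33, 138.9, 53.0 and 44.1 CPM in graft libraries 1 to 5 and 411.6, 296.6, 431.5, 487.9 and 375.4 CPM in resting libraries 1 to 5. It fell by 2.61 ± 0.56 on the log2 scale. Sftpb, which spreads the surfactant film, fell by 3.24 and Slc34a2, the sodium-phosphate cotransporter of type 2 cells, by 3.44 on the log2 scale. Slc34a2 had 16.0, 0.385, 21.9, 11.3 and 5.60 CPM in graft libraries 1 to 5 against 85.4 to 149.7 CPM in resting lung, so that graft library 2 was again the lowest. Lamp3, a membrane protein of lamellar bodies, the surfactant stores, fell by 2.29. Sftpd, the other collectin, fell by 1.80 ± 0.54 (adjusted p = 0.0157), a call lost without graft replicate 5 (adjusted p = 0.0549) and when scarce genes were kept in (adjusted p = 0.108).

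The remaining type 2 genes had smaller fold changes. Abca3, the transporter that loads lipid into lamellar bodies, had 40.3, 34.2, 40.0, 37.9 and 34.5 CPM in graft libraries 1 to 5 and 66.6, 51.0, 58.3, 78.2 and 59.0 CPM in resting libraries 1 to 5. The groups did not overlap, and it fell by 0.74 ± 0.12 on the log2 scale (quasi-likelihood adjusted p = 0.000209), less than the surfactant genes beside it. Napsa, a protease that processes surfactant protein B, had 224.1, 280.3, 251.4, 305.3 and 255.8 CPM in graft libraries 1 to 5 and 210.9, 265.1, 254.6, 316.2 and 293.6 CPM in resting libraries 1 to 5. Its groups overlapped throughout, and its log2 fold change was -0.03 ± 0.13 (adjusted p = 0.892). Etv5, a transcription factor that maintains type 2 cells in mice, had 12.1 to 24.1 CPM in the graft and 17.3 to 30.5 CPM in resting lung (log2 fold change -0.22 ± 0.24, adjusted p = 0.467). Graft library 2 had 1.11 times the median of the other 4 graft libraries for Napsa and 1.40 times for Etv5. For Abca3 it was the lowest graft library, at 0.878 times that median, and for Sftpc it stood at 0.0673 times. The exons of Napsa overlap an antisense gene over 18.9% of their length. No source used here states the strand setting of the counts, and reads of the pair cannot be told apart.

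Type 1 genes ran from the deepest alveolar falls to a rise. Ager, the receptor for advanced glycation end products and a membrane protein of type 1 cells (ENSMUSG00000015452, chromosome 17, 34597862 to 34600936, mm10), had 7.25, 1.54, 9.45, 7.12 and 7.00 CPM in graft libraries 1 to 5 and 265.9, 216.9, 260.6, 411.5 and 253.0 CPM in resting libraries 1 to 5. Every graft library was far below every resting library, and Ager fell by 5.44 ± 0.39 on the log2 scale (SE, adjusted p = 1.66e-07). Rtkn2 had 0.670, 0.549, 0.667, 0.0659 and 0.862 CPM in graft libraries 1 to 5 and 25.6 to 43.3 CPM in resting lung. Its 5 graft libraries held 55 counts in all, and it fell by 5.77 ± 0.32. Aqp5, a water channel, fell by 4.32 ± 0.45. Hopx, a homeodomain cofactor of type 1 cells, had 35.7, 39.8, 47.6, 36.3 and 31.4 CPM in graft libraries 1 to 5 and 250.5, 216.6, 229.7, 279.4 and 217.6 CPM in resting libraries 1 to 5. It fell by 2.64 ± 0.13, with little spread in either group. Hopx shares 27.2% of its exon length with an antisense gene, whose reads cannot be told apart from its own.

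Clic5, an intracellular channel protein tied to the cytoskeleton, had 93.3, 33.6, 26.4, 14.6 and 17.2 CPM in graft libraries 1 to 5 and 316.8, 244.2, 286.0, 304.8 and 243.3 CPM in resting libraries 1 to 5. Graft library 1 stood above the other 4, and the groups did not overlap. The log2 fold change was -2.92 ± 0.44, and -3.59 without graft replicate 1. Pdpn, podoplanin, a mucin-like membrane protein (ENSMUSG00000028583, chromosome 4, 143267431 to 143299564, mm10), was the gene that rose. It had 32.2, 30.1, 19.0, 16.5 and 15.4 CPM in graft libraries 1 to 5 and 13.2, 9.64, 12.9, 14.7 and 10.1 CPM in resting libraries 1 to 5. Every graft library was above every resting library, by a small margin between the nearest pair, and the log2 fold change was 0.90 ± 0.23 (adjusted p = 0.00501). Podoplanin is also a marker of lymphatic endothelium and is made by some macrophages and fibroblasts. Over all tested genes 23.4% fell and 23.3% rose. In the same libraries 4 of 4 tested lymphatic markers fell (median log2 fold change -3.11). Of the markers of monocytes and interstitial macrophages 8 of 10 rose (median 2.04), and of 10 fibroblast and smooth muscle markers 6 fell and 1 rose. The part of these cells in the Pdpn level was not tested.

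Both genes shared by the alveolar types fell. Cldn18, a claudin of alveolar tight junctions, had 3.23, 1.10, 5.73, 4.68 and 4.74 CPM in graft libraries 1 to 5 and 125.3, 106.8, 134.0, 189.5 and 113.5 CPM in resting libraries 1 to 5, a fall of 5.09 ± 0.35 on the log2 scale (quasi-likelihood adjusted p = 1.11e-07). Nkx2-1, the transcription factor that specifies lung epithelium, was scarce throughout. It had 0.220 to 0.588 CPM in the graft (35 counts in all) and 3.50 to 5.27 CPM in resting lung (231 counts in all), and fell by 3.64 ± 0.31.

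**Figure D2:**
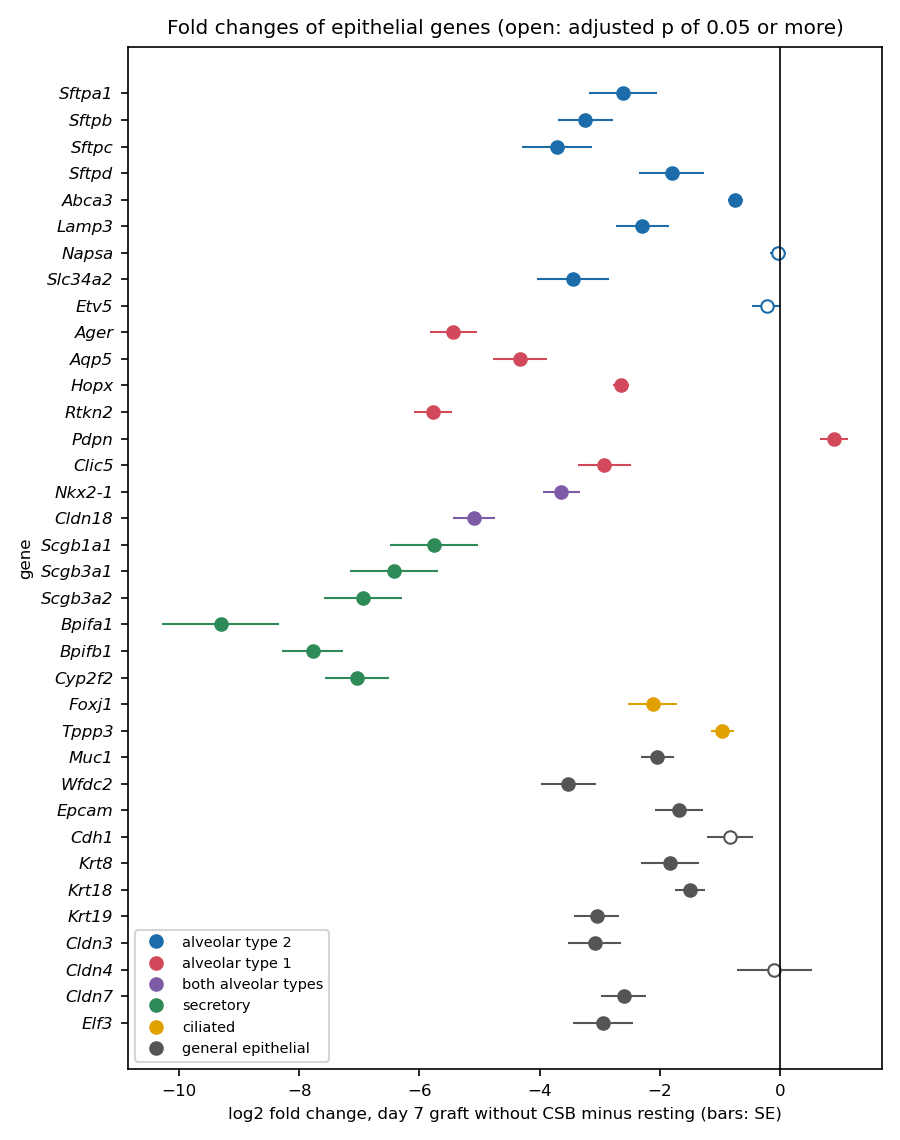
Log2 fold change (graft day 7 without CSB minus resting, horizontal axis, bars SE) of each of the 36 genes, coloured by subset, with open points where the adjusted p was 0.05 or more. The 6 secretory genes lie between -9.31 and -5.76, next to Rtkn2 at -5.77, and Pdpn is the filled point right of 0, at 0.90.

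All 6 secretory genes fell, with log2 fold changes of -9.31 to -5.76 and the lowest median of the subsets, -6.99. Only Scgb1a1, the one with the smallest fall, reached the filter in every graft library. The others were below it in at least 1 graft library, so their falls and the median are descriptions. Scgb1a1, the club cell secretory protein (ENSMUSG00000024653, chromosome 19, 9083636 to 9087958, mm10), had 8.47, 2.58, 18.8, 16.8 and 67.5 CPM in graft libraries 1 to 5 and 1626, 1222, 1523, 694.7 and 1127 CPM in resting libraries 1 to 5. Graft library 5 was the highest graft library and still far under the lowest resting one. Scgb1a1 fell by 5.76 ± 0.73 on the log2 scale (SE, quasi-likelihood adjusted p = 2.86e-05), and the log2 fold change was -6.71 without graft replicate 5. Bpifa1, a secreted airway defence protein (ENSMUSG00000027483, chromosome 2, 154142880 to 154149219), had 1.77, 0.0550, 0.314, 0.725 and 0.754 CPM in graft libraries 1 to 5, which is 63 counts in all. In resting libraries 1 to 5 it had 1492, 185.4, 197.7, 178.5 and 161.2 CPM. Its neighbour Bpifb1, a related airway protein (chromosome 2, 154190818 to 154220369), had 22 counts over the 5 graft libraries and 0 in graft library 2, against 21.5 to 81.1 CPM in resting lung, and fell by 7.78 ± 0.51.

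The other secretory genes behaved alike in direction and differed in which library was high. Cyp2f2, a cytochrome P450 of club cells, had 1.58, 0.0550, 0.941, 1.91 and 2.69 CPM in graft libraries 1 to 5 and 307.5, 121.7, 222.4, 140.9 and 141.5 CPM in resting libraries 1 to 5, and fell by 7.04 ± 0.53. Part of its exons (13.5% of their length) overlaps an antisense gene. Scgb3a1 and Scgb3a2, further secretoglobins of the airway, had log2 fold changes of -6.42 ± 0.73 and -6.94 ± 0.65. Scgb3a1 had 3.43 CPM in graft library 4 and 0.183 to 0.808 CPM in the other graft libraries, against 13.8 CPM in resting library 4 and 74.6 to 151.8 CPM in the other resting libraries. Without graft replicate 4 its log2 fold change was -7.38. Scgb3a2 had 0.0784 to 1.78 CPM in the graft, against 203.8 CPM in resting library 1 and 47.3 to 85.4 CPM in the other resting libraries. Its log2 fold change was -7.55 without graft replicate 5, and -6.14 without graft replicate 2 and resting replicate 1.

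The 2 ciliated genes fell by less. Foxj1, the transcription factor that switches on motile cilia (ENSMUSG00000034227, chromosome 11, 116330704 to 116335399, mm10), had 0.792, 0.220, 0.549, 0.461 and 0.862 CPM in graft libraries 1 to 5 and 1.48, 3.58, 3.93, 1.49 and 2.15 CPM in resting libraries 1 to 5. It was scarce in both groups, with 54 counts in the graft and 128 in resting lung, and fell by 2.12 ± 0.41 on the log2 scale (adjusted p = 0.000852). Tppp3, a protein that binds and bundles microtubules, had 70.3, 98.8, 89.4, 82.6 and 49.4 CPM in graft libraries 1 to 5 and 153.6, 138.5, 124.7, 212.4 and 132.6 CPM in resting libraries 1 to 5. It fell by 0.96 ± 0.19 (adjusted p = 0.00099). Tppp3 took nearly all of the summed level of this pair, and graft library 2 had 1.29 times the median of the other 4 graft libraries for Tppp3 and 0.328 times for Foxj1.

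Among the genes of epithelium in general 9 of 11 fell and 2 did not pass, with a median log2 fold change of -2.04. Krt19, Krt8 and Krt18, keratins of simple epithelium, had log2 fold changes of -3.05 ± 0.37, -1.83 ± 0.48 and -1.5 ± 0.25 and all fell. The Krt8 call was lost when scarce genes were kept in (adjusted p = 0.07). Processed copies of Krt8 and Krt18 exist in the genome, and the sources used here do not state how reads with several matches were counted, which leaves the values of these 2 genes uncertain. Wfdc2, a secreted protease inhibitor of the airway, fell by 3.52 ± 0.46, Cldn3 and Cldn7, claudins of tight junctions, by 3.08 and 2.60 on the log2 scale. Elf3, an epithelial transcription factor, had a log2 fold change of -2.95, and -2.27 without graft replicate 2 and resting replicate 1. Muc1, a membrane mucin, fell by 2.04 and Epcam, the epithelial adhesion molecule, by 1.68. Cdh1, which encodes E-cadherin, had 61.2, 8.90, 42.2, 21.8 and 26.5 CPM in graft libraries 1 to 5 and 71.4, 39.0, 59.3, 74.5 and 42.5 CPM in resting libraries 1 to 5. The groups overlapped, and the log2 fold change was -0.83 ± 0.39 (adjusted p = 0.101). Without graft replicate 1 Cdh1 was lower with an adjusted p of 0.0163. Cldn4, another claudin, was scarce, at 0.122 to 2.12 CPM in the graft and 0.298 to 1.80 CPM in resting lung, and did not pass (adjusted p = 0.916).

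Levels of different genes were compared as CPM per kb of merged exon length. Summed over the subset in this unit, type 2 genes had 280.6 ± 109.0 in the graft and 2118 ± 532.8 in resting lung (mean ± SD, n = 5 each). Type 1 genes had 45.7 ± 8.65 in the graft and 347.8 ± 60.4 in resting lung. The log2 ratios of the group means were -2.92 for type 2 and -2.93 for type 1. For secretory genes the sums were 51.9 ± 55.4 in the graft and 3251 ± 1220 in resting lung, a log2 ratio of -5.97. For the ciliated pair they were 42.5 ± 10.3 in the graft and 83.4 ± 18.8 in resting lung, a log2 ratio of -0.97. In none of the 4 subsets did the graft and the resting libraries overlap. These ratios depend on the gene with the highest level in each subset: without it the log2 ratio was -1.29 for type 2, -3.22 for type 1, -7.36 for secretory and -2.13 for ciliated genes.

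**Figure D3:**
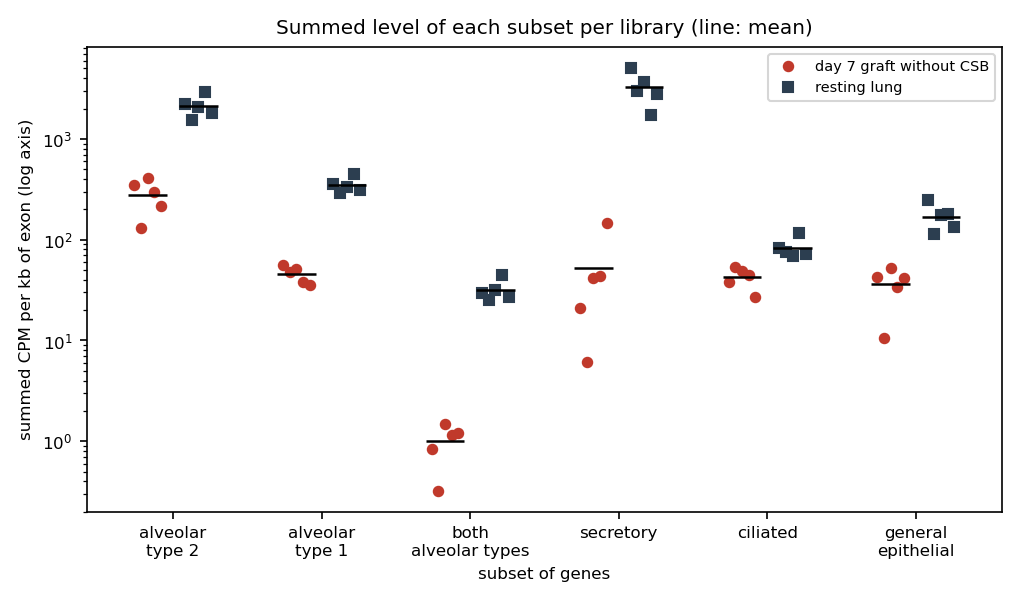
Summed CPM per kb of exon (log axis) of each subset of the 36 genes, 1 point per library, graft day 7 without CSB left of resting lung, with a line at the mean. The secretory sums lie between 6.07 and 147.1 in the graft and between 1733 and 5042 in resting lung, and the ciliated sums are the closest between groups.

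With Napsa counted in, the secretory share of the summed level of the 36 genes was lower in every graft library than in every resting library. The nearest pair, graft library 5 and resting library 4, differed little, and the type 2 shares overlapped. Of the summed level per kb over all 36 genes, secretory genes held 2.44% to 31.3% in the graft libraries and 31.8% to 63.0% in the resting libraries, and type 2 genes held 46.3% to 68.7% in the graft and 28.0% to 53.9% in resting lung. The gene with the highest level per kb was Sftpc in the graft, at 134.4 CPM per kb, followed by Napsa with 99.0 and Scgb1a1 with 48.0 CPM per kb. In resting lung it was Scgb1a1, at 2602 CPM per kb, followed by Sftpc with 1762 and Bpifa1 with 286.8 CPM per kb. Napsa ranked 2 of 36 in the graft and 9 of 36 in resting lung, at 99.0 CPM per kb in the graft and 100.8 CPM per kb in resting lung. These are parts of mean type 2 sums of 280.6 in the graft and 2118 in resting lung. Secretory genes held 147.1 of 469.6 CPM per kb in graft library 5 and 1733 of 5458 in resting library 4. With Napsa left out, the secretory share of graft library 5 would lie above that of resting library 4. The separation of the secretory shares therefore rests on Napsa being counted in.

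Of 8 ratios between chosen pairs of genes within a library, 4 separated the groups without overlap and 4 did not. Other pairs were not examined, so no background share is given. The ratio of Sftpc to Ager, each per kb, was 60.5, 16.4, 50, 43.9 and 27.2 in graft libraries 1 to 5 and 15.2, 12.3, 14.0, 13 and 12.4 in resting libraries 1 to 5. Every graft ratio was higher than every resting ratio, and the resting ratios were tightly grouped. The ratio of Sftpc to Abca3, 2 type 2 genes, was 3.24 to 51.7 in the graft and 229 to 299 in resting lung. The ratio of Sftpc to Sftpb was 14.1 to 32.3 in the graft and 36.2 to 43.6 in resting lung, and that of Sftpa1 to Sftpc 0.127 to 0.220 in the graft and 0.0683 to 0.0893 in resting lung. These are the 4 that separated the groups, and all 4 contain Sftpc, so they are not separate results. The ratio of Scgb1a1 to Sftpc overlapped: it was 0.0869, 0.460, 0.179, 0.242 and 1.59 in graft libraries 1 to 5 and 1.81, 2.06, 1.87, 0.585 and 1.61 in resting libraries 1 to 5, with graft library 5 and resting library 4 crossing over. Among secretory genes, the ratio of Scgb3a1 to Scgb1a1 was 0.00953 to 0.162 in the graft and 0.0158 to 0.0743 in resting lung, and that of Bpifa1 to Scgb1a1 was 0.00344 to 0.0643 in the graft and 0.0400 to 0.283 in resting lung, both with overlap. The ratio of Krt8 to Krt18 also overlapped, at 0.157 to 0.980 in the graft and 0.690 to 1.16 in resting lung.

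**Figure D4:**
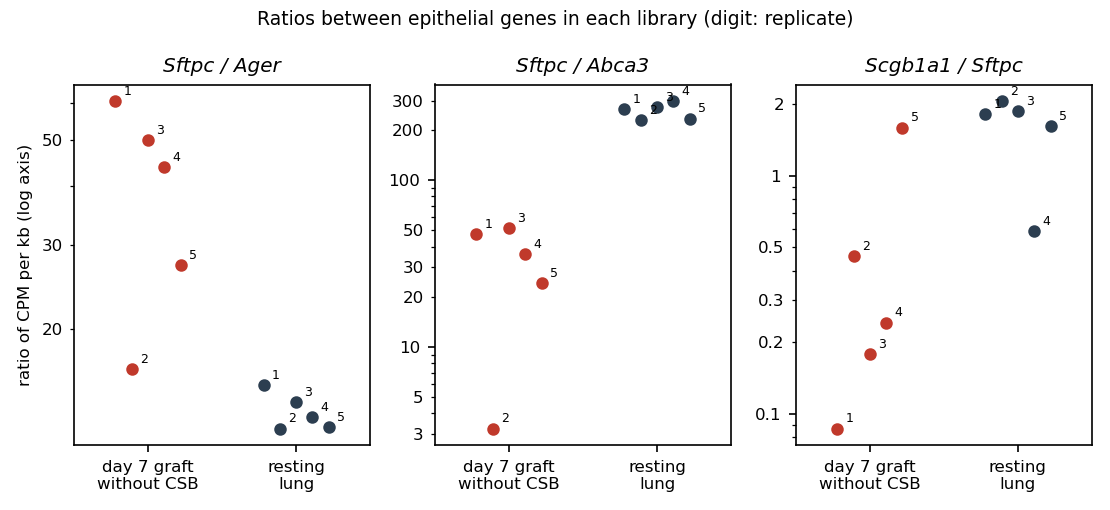
Ratio of the CPM per kb of 2 genes within each library (log axis), graft day 7 without CSB left of resting lung, digits giving the replicate. Sftpc over Ager is 16.4 to 60.5 in the graft and 12.3 to 15.2 in resting lung, Sftpc over Abca3 is lower in the graft, and Scgb1a1 over Sftpc overlaps between groups.

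Within groups the genes varied more among graft libraries than among resting libraries. The median coefficient of variation over the 36 genes was 0.633 in the graft and 0.270 in resting lung. This was not particular to them. Over all genes with enough counts, chi-square per degree of freedom between pairs was 21.61 to 114.82 in the graft. In resting lung it was 5.95 to 21.25, a measure that also grows with depth. Graft library 2 was the lowest of the graft libraries for 26 of the 36 genes, and 27 stood below 0.5 times the median of the other 4. The exceptions included 6 genes that stood above that median, Napsa, Etv5, Hopx, Pdpn, Clic5 and Tppp3. In that library markers of mesothelium summed to 4.62 CPM against 13.4 to 31.4 CPM in the other graft libraries, and markers of fibroblasts and smooth muscle to 138.1 against 372.0 to 674.5 CPM. Its markers of monocytes and interstitial macrophages summed to 8763 CPM against 4376 to 5742 CPM. Their part in the epithelial values was not tested. Without graft replicate 2 the count of genes that fell was again 31 of 36, and it was also 31 without graft replicate 2 and resting replicate 1 together, a choice made after seeing the data. In resting lung library 2 was the lowest for 24 genes, and libraries 1 and 4 were the highest for 17 and 16. Resting library 1 was the high one for Bpifa1, whose log2 fold change of -9.31 ± 0.97 was -8.00 without it, -9.92 without graft replicate 1 and -7.72 without resting replicate 1 and graft replicate 2.

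Of 77 other epithelial genes, 17 were too scarce to test, and of the 60 tested 46 fell, 2 rose and 12 did not pass, beside 23.4% of all tested genes that fell. Only 21 of the 77 reached the filter in all 5 graft libraries, and 12 of these 21 fell. The others that fell were below the filter in at least 1 graft library, and those that passed through resting lung alone had to be lower, so the counts below are descriptions. All 10 further type 1 genes fell, 6 of them genes that reached the filter in every graft library. The most abundant were Emp2, a tetraspan membrane protein, with 8.39 ± 4.10 CPM in the graft and 923.8 ± 89.3 CPM in resting lung, Akap5, a kinase anchor, with 4.57 ± 1.79 CPM in the graft and 87.8 ± 17.6 CPM in resting lung, and Gprc5a, an orphan receptor, with 11.6 ± 1.64 CPM in the graft and 81.4 ± 18.4 CPM in resting lung (mean ± SD, n = 5 each). Of 10 further type 2 genes 9 fell, but only 3 of the 10 reached the filter in every graft library and 2 of these fell. Those that fell included Lpcat1, which makes surfactant lipid, by 1.29, Cxcl15, a lung chemokine, by 2.34, and Hc, complement component 5, by 4.03 on the log2 scale. The 1 type 2 gene that rose was Cebpa, a transcription factor of type 2 and myeloid cells, with 9.94 ± 4.18 CPM in the graft and 4.71 ± 1.80 CPM in resting lung. It is named after its value was seen.

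Of 10 further secretory genes 7 were tested and all 7 fell, with only 1 that reached the filter in every graft library. Sec14l3, a lipid-binding protein, fell by 6.00, Muc5b, the main gel mucin of the mouse airway, by 3.31, and Reg3g, a defence lectin, by 2.74 on the log2 scale. Of 20 further ciliated genes 15 were tested, 10 fell and 5 did not pass. Of the 4 that reached the filter in every graft library 1 fell, a share near that of all tested genes. The most abundant were Ccno, a cyclin of cells that build many cilia, which did not pass (5.37 ± 3.52 CPM in the graft and 2.15 ± 1.27 CPM in resting lung), and the dynein heavy chains Dnah5 and Dnah9, which fell by 3.05 and 0.76. The 5 basal cell genes were scarce, summing to 1.10 to 4.16 CPM in the graft and 4.44 to 73.2 CPM in resting lung. Krt15, a basal keratin, had 0.116 ± 0.0706 CPM in the graft and 11.8 ± 19.3 CPM in resting lung, of which 46.1 CPM stood in resting library 1, the library that was also high in Bpifa1. Krt5 was too scarce to test and Aqp3 did not pass (adjusted p = 0.0752). Of 10 genes of neuroendocrine cells, tuft cells and ionocytes only 3 were tested, and of these Dclk1 fell while Calca and Cftr did not pass. Among 12 further general genes 8 fell, Spint2 by 0.70, and 3 did not pass, and of the 6 that reached the filter in every graft library 2 fell. The 1 that rose was Spint1, a membrane inhibitor of serine proteases, with 35.9 ± 14.4 CPM in the graft and 7.62 ± 3.16 CPM in resting lung.

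Most markers of other structural cells fell in the same libraries, beside 23.4% of all tested genes that fell and 23.3% that rose. All 12 endothelial markers fell, with a median log2 fold change of -5.17, and their sum was 104.3 to 195.3 CPM in the graft and 3018 to 4098 CPM in resting lung. Calcrl, a receptor of vessels, had 20.7 ± 5.84 CPM in the graft and 712.7 ± 117.2 CPM in resting lung. Pecam1, the adhesion molecule CD31, had 69.96 ± 17.01 CPM in the graft and 433.0 ± 50.3 CPM in resting lung (mean ± SD, n = 5 each). Of 5 mesothelial markers 4 fell, with Msln and Upk1b lower by 1.57 and 2.46, and the 5 red cell genes all fell, with a median of -4.48, with log2 fold changes of -4.48 for Hba-a1 and -4.27 for Hbb-bs. Mesothelium also makes Krt8, Krt18, Krt19 and Pdpn. Of the 10 fibroblast and smooth muscle markers 6 fell, 1 rose and 3 did not pass. Inmt fell by 7.74. The collagen gene Col3a1 had 172.8 ± 92.0 CPM in the graft and 169.8 ± 14.4 CPM in resting lung and did not pass. The part of these cells in the epithelial values was not tested.

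Markers of immune cells went several ways, beside 23.4% of all tested genes that fell and 23.3% that rose. All 8 T cell markers rose (median log2 fold change 2.42), including Lck and Trbc2 by 2.05 and 2.23. Of 5 tested markers of migratory dendritic cells 4 rose, Ccr7 by 0.64 and Zmynd15 by 2.77, and Csf1r and Apoe, markers of monocytes and macrophages, rose by 0.66 and 1.09. Of 8 alveolar macrophage markers 5 fell and 1 rose. Ear2 fell by 1.97, and Chil3 did not pass. Of 10 eosinophil markers 4 fell, 1 rose and 5 did not pass, Ccr3 and Alox15 among them, and of 8 neutrophil markers 2 fell and 6 did not pass, including Retnlg and S100a9. All 5 B cell markers fell, Cd79a by 0.88. The lists of secretory genes and of endothelium were those with the lowest medians, -6.99 and -5.17. Of the secretory genes 1 reached the filter in every graft library, and of the 12 endothelial genes 9 did.

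**Figure D5:**
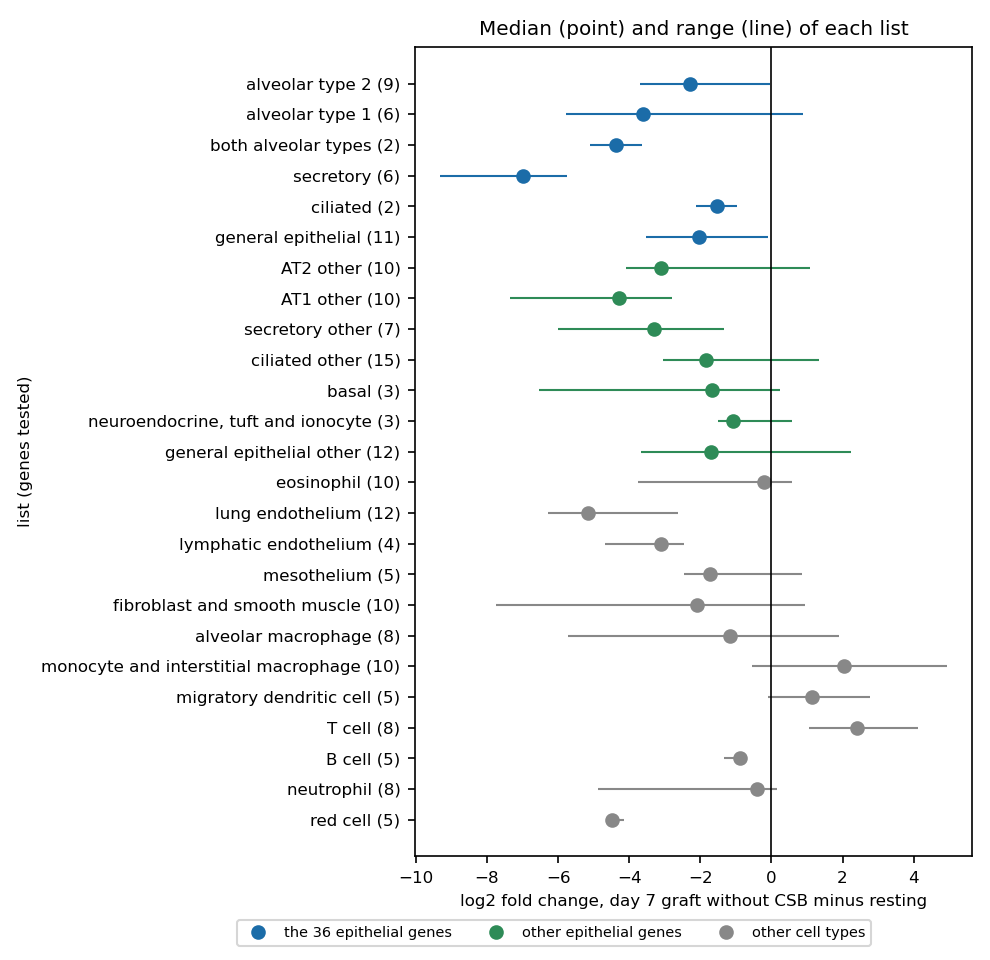
Median (point) and range (line) of the log2 fold change, graft day 7 without CSB minus resting, for each list of genes, with the number of tested genes in brackets. The 6 subsets of the 36 genes have medians from -6.99 to -1.54, lung endothelium has -5.17 and T cells have 2.42.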

How the data were processed

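Per the labels' protocols, RNA was taken up in Trizol and sequenced from NEBNext Ultra II libraries. The submitters' processing notes name bcl2fastq 2.17, Trimmomatic 0.36, STAR 2.5.2b, featureCounts, Subread 1.5.2 and the mouse build mm10. Settings, strand and annotation release are not stated there. The files deposited by the authors hold raw counts per gene identifier. Reads of Balb/c tissue were counted against a C57BL/6 reference, and the effect was not tested. Columns were tied to samples by label, and 10 columns headed by bare numbers were not used. Symbols, spans and exon lengths came from GENCODE M21 (48970 of 49315 identifiers matched), and promoters from RefSeq.

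Counts of the 2 groups were joined and filtered with filterByExpr, which left 16500 genes. The test was edgeR 4.0.16's under R 4.3.3 (TMM, robust quasi-likelihood F test, group as the only term), adjusted by Benjamini-Hochberg at 0.05. Each SE was derived from the log2 fold change and its F statistic. The step was tested on simulated data. Within groups no pair of libraries agreed within sampling noise (chi-square per degree of freedom 5.95 or more). Sums over subsets carry no test. Alternatives were DESeq2 1.42.0, other scalings and filters, each library left out, and the replicate number as a block. Named were all 36 genes, the 3 most abundant of each further epithelial list and the 2 most abundant of each other list. Some genes that this rule names are not reported here. The genes and lists were chosen with earlier results of these data known.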

Additional observations from a re-analysis of the deposited data

Results flagged for a closer look

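In each group of 5 libraries the value farthest from the others was compared with Dixon's critical ratio of 0.71. Of 72 groups (36 genes in 2 groups) 6 exceeded it. Chance flags about 1 in 20 when values are normally distributed. The genes share libraries and are not independent, so this rate is only a guide. In the graft, Clic5 in replicate 1 had 93.3 CPM against 14.6 to 33.6 CPM in the other 4, Scgb1a1 in replicate 5 had 67.5 CPM against 2.58 to 18.8 CPM, and Scgb3a1 in replicate 4 had 3.43 CPM against 0.183 to 0.808 CPM. In resting lung, Bpifa1 in replicate 1 had 1492 CPM against 161.2 to 197.7 CPM, Scgb3a2 in replicate 1 had 203.8 CPM against 47.3 to 85.4 CPM, and Ager in replicate 4 had 411.5 CPM against 216.9 to 265.9 CPM. All 6 were the highest value of their group, on a CPM scale bounded at 0, where a low value is harder to flag.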

How the results depend on the processing

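Of the 32 epithelial genes called, 30 kept their call and direction under all of the 17 alternatives that gave a value, the exceptions being Sftpd and Krt8. DESeq2 gave no adjusted p for Bpifa1 and called 30 lower and 1 higher. Leaving out 1 library gave 30 to 32 lower, and keeping scarce genes in gave 29. Napsa and Cldn4, which were not called, changed sign: Napsa had a log2 fold change of 0.09 without a filter on low counts and -0.09 to 0.06 with 1 library left out, and Cldn4 had 0.02 without a filter, -0.6 to 0.19 with 1 library left out and 0.38 without graft replicate 2 and resting replicate 1. Over all genes, library totals alone called 2495 higher, against 3843, and lowered the median log2 fold change by 0.19. The share of higher calls was 33.8% instead of 49.9%. Without a filter 6715 were lower, against 3859. The summed type 2 level had a log2 ratio of -2.34 with counts not divided by length, against -2.92, and without the highest gene the ratios were -1.29 (type 2), -3.22 (type 1), -7.36 (secretory) and -2.13 (ciliated). The numbers shared by labels did not pair the libraries (correlations of deviations -0.188 to 0.12, none best with its own number), and the replicate block gave 32 epithelial genes lower and 1 higher, Cdh1 being the one gained (adjusted p = 0.0132), with 3636 lower and 3317 higher over all genes. Genes with few graft counts, such as Bpifb1 (22) and Rtkn2 (55), have fold changes limited by depth.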
